A study of Mus musculus with 23 samples.

Results

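The genes described here are 10 acute phase reactants measured in mouse liver, namely Orm1, Orm2, Orm3, Saa1, Saa2, Saa3, Saa4, Hp, Lcn2 and Apcs. They were chosen by name among 37074 genes named on the array, and the set was built around Orm3, which was picked for its rise in Pxr-/- mice given PCN. All 10 genes had at least 1 probe above the detection filter (12 probes in all), which left 21056 genes in the comparison. Because of that choice, the values of Orm3 in every comparison that includes Pxr-/- mice are given as a description with no test, and nothing is read from how many of the 10 genes rose in Pxr-/- mice. Counts of the 10 genes called in comparisons with Pxr-/- mice include Orm3, whose part in them carries no test.

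The livers of 23 male mice were profiled on 1-colour Agilent expression arrays, 1 mouse per array. The study asked which hepatic genes respond to the mouse pregnane X receptor (PXR) ligand pregnenolone 16α-carbonitrile (PCN) through PXR, a nuclear receptor of xenobiotic metabolism. The 4 groups were wild-type mice given corn oil (WT CONT, n = 6), wild-type mice given PCN (WT PCN, n = 5, a 6th planned animal not being analysed here), mice without PXR given corn oil (Pxr-/- CONT, n = 6) and mice without PXR given PCN (Pxr-/- PCN, n = 6). PCN was injected intraperitoneally each day for 4 days at 100 mg/kg in corn oil, so that every mouse received the vehicle and the handling, and animals, fed per the labels and semi-fasted at that time in the study's description, were killed at ZT6, 6 h past the final dose. WT C57BL/6J mice were bought at 6 weeks of age and acclimatized for 2 weeks. The Pxr-/- mice were on the same background but came from a colony kept for 10 years in the facility, and their age was not given in the sources used here. Genotype therefore cannot be told apart from colony. Arrays were washed in 2 batches, each holding 3 arrays of every group except for 2 WT PCN arrays in batch 2.

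Acute phase reactants are plasma proteins whose synthesis by hepatocytes shifts during infection, injury or inflammation. Interleukin-6 and related cytokines act on them through STAT3, interleukin-1 acts through NF-κB and C/EBP factors, and glucocorticoids often strengthen these signals. The orosomucoids (Orm1, Orm2, Orm3) are drug- and lipid-binding α1-acid glycoproteins. Saa1 and Saa2 encode the serum amyloid A proteins carried on high-density lipoprotein, Saa3 is the form made largely outside hepatocytes, and Saa4 is the constitutive form. Hp (haptoglobin) binds free haemoglobin, Lcn2 (lipocalin 2) binds bacterial siderophores and is also made by neutrophils, and Apcs (serum amyloid P) is the main acute phase pentraxin of the mouse.

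The orosomucoid genes lie side by side and resemble one another, so the sequences that read them are shown first. The probes for Orm1 and Orm3 are aligned copies of the same stretch of transcript over 52 bases, of which 46 are identical (88.5%), and the capitals mark the 6 bases at which they differ. The Orm2 probe comes from another stretch. In build mm9 the Orm1 probe spans chr4:63007395-63009038, the Orm3 probe chr4:63018910-63020393 and the Orm2 probe chr4:63024979-63025038. The first pair cover far more genome than the 60 bases of a probe, so both cross an exon junction. The transcripts listed for the Orm1 probe belonged to both Orm1 and Orm2 in RefSeq. Among the 66 pairs of the 12 probes, this was the only pair alike at 80% identity or more over at least 20 bases. Hybridisation of one orosomucoid transcript to the probe of another was not tested.
Orm1: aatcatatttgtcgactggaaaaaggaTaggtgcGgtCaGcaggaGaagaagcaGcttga
Orm3: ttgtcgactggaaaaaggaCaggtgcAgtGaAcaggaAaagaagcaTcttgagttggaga
Orm2: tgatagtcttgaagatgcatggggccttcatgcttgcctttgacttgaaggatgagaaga

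The region upstream of the start site was compared because it is where these genes are known to be controlled together. RefSeq promoter entries (build GRCm38.p6) were found for 8 of the 10 genes, Orm1 and Hp having none in the table used here. The 250 bases before the start sites of Orm3 (chr4:63355908-63356157) and Orm2 (chr4:63362199-63362448), both on the plus strand, are printed with a C/EBP-type match in capitals.
Orm3: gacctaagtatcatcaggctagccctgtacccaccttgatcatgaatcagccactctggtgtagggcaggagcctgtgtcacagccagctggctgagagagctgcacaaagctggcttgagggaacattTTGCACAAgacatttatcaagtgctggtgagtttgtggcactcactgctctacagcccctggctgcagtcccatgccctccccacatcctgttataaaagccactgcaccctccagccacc
Orm2: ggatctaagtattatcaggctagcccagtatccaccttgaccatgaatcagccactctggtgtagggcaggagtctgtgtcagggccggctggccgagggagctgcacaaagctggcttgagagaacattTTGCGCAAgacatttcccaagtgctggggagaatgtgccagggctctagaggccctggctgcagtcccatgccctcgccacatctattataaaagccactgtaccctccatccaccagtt

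The C/EBP-type motif TTGCNNAA, searched on both strands, was present in 7 of the 8 promoters, with Apcs the exception, against 9.56% of all 32851 mouse promoters of this length. The match began 121 bases before the start in Orm3 and 120 bases before it in Orm2. The STAT3-type motif TTCNNNGAA was found in Apcs alone (7.02% of all promoters), the NF-κB-type motif in none (1.21%), and the glucocorticoid receptor-type motif ACANNNTGT in Orm3 and Lcn2 (5.84%). No match overlapped a match of another motif. A match of letters is a description of these windows and not a binding site, and the promoters of Orm2 and Orm3, like those of Saa1 and Saa2, are near copies of each other.

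Between 29510 and 33321 probes were well above background on each array. Cyp3a11, the classical PXR target, separated the treatments as labelled. In normalized log2 signal it stood at 13.62 ± 0.42 (SD, n = 6) in WT CONT and 17.16 ± 0.16 (n = 5) in WT PCN mice, and 14.31 and 14.62 in Pxr-/- CONT and Pxr-/- PCN mice. The probe for Nr1i2, the gene of PXR, did not separate the genotypes (11.47 ± 0.55 in WT CONT and 11.44 ± 0.80 in Pxr-/- CONT mice), and whether it lies in the deleted part is not known here. All 6 hepatocyte markers were detected, at a summed log2 signal between 19.65 and 20.05 on the 23 arrays. In whole liver, fewer cells of a type and less RNA per cell cannot be told apart. Nothing in the labels says more of replicates than that they were separate mice.

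Among corn oil-treated mice, the acute phase genes differed widely within a group. Described first are 3 vehicle-treated mice, each the lowest or highest of its group for at least 8 of the 10 genes. WT CONT replicate 2 had the lowest signal of its group for 10 of 10 genes, and so had Pxr-/- CONT replicate 5. These were also the 2 lowest arrays of all 23 for 9 of the 10 genes, Saa3 being the exception. WT CONT replicate 6 lay at the other end. It was the highest of its group for 8 genes, stood above every WT PCN mouse for 5, and was the highest of all 23 for Orm1, Orm2 and Hp. As a median over the 10 genes, the deviation from each gene's mean was -2.28 on the log2 scale in WT CONT replicate 2, -1.81 in Pxr-/- CONT replicate 5 and 0.91 in WT CONT replicate 6, whereas WT PCN mice lay between 0.26 and 0.61 and Pxr-/- PCN mice between 0.23 and 0.66. All 3 arrays were washed in batch 2, on 3 different slides. Pxr-/- CONT replicate 2, washed in batch 1, also deviated, with a median of -0.87 and a lowest value of -2.11. The 3 mice were picked by their values, so no link with the batch is read.

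**Figure D1:**
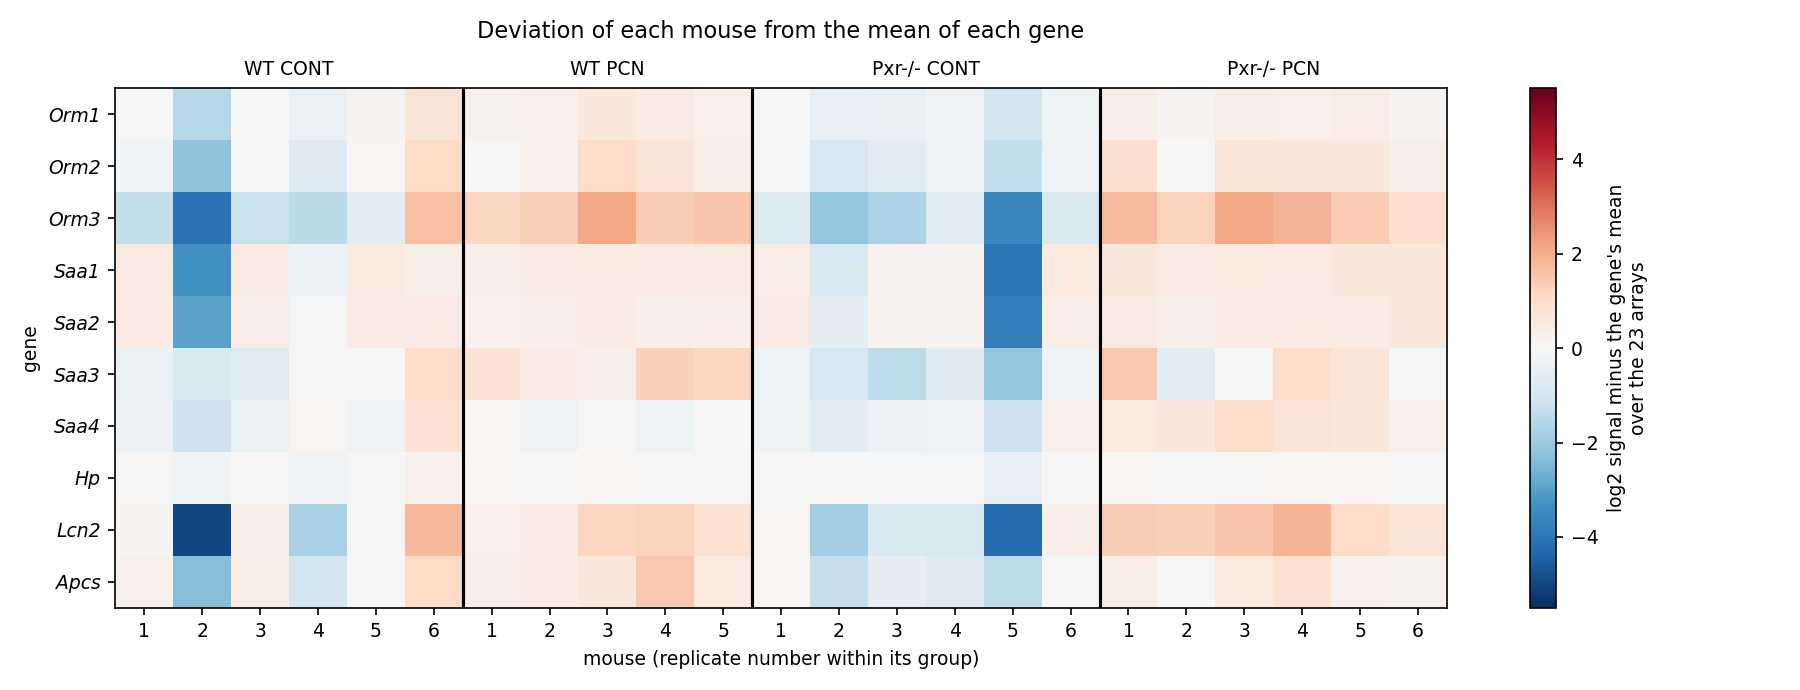
Deviation of each of the 10 acute phase genes (rows) from its mean over the 23 arrays, in normalized log2 signal, for every mouse (columns, by group and replicate). WT CONT replicate 2 and Pxr-/- CONT replicate 5 are low across the genes, with median deviations of -2.28 and -1.81, and WT CONT replicate 6 is high, at 0.91.

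This spread was larger in control than in PCN-treated mice. The SD was larger in CONT than in PCN for 10 of 10 genes in WT mice and for 9 of 10 in Pxr-/- mice, Saa3 excepted, whereas over all genes this held for 51.4% and 58.4%. The median SD of the 10 genes was 1.17 on the log2 scale in WT CONT, 0.28 in WT PCN, 0.69 in Pxr-/- CONT and 0.28 in Pxr-/- PCN mice, against 0.16, 0.16, 0.17 and 0.15 for all genes. Lcn2 covered the widest range among the 10. Its signal spanned a 109-fold range among the 6 WT CONT mice and a 24.2-fold range among Pxr-/- CONT mice, but a 1.96-fold range in WT PCN and a 2.19-fold range in Pxr-/- PCN mice. Orm3 spanned 51.3-fold in WT CONT and 7.59-fold in Pxr-/- CONT mice. For both genes the WT CONT range ran from replicate 2 to replicate 6, and replicate 5 was the lowest Pxr-/- CONT mouse. Saa1, Saa2 and Hp ranked 35, 18 and 14 of 21056 genes by level, near the top of the scale, where small differences are not resolved. These are descriptions of the arrays, and the difference in spread was not tested.

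**Figure D2:**
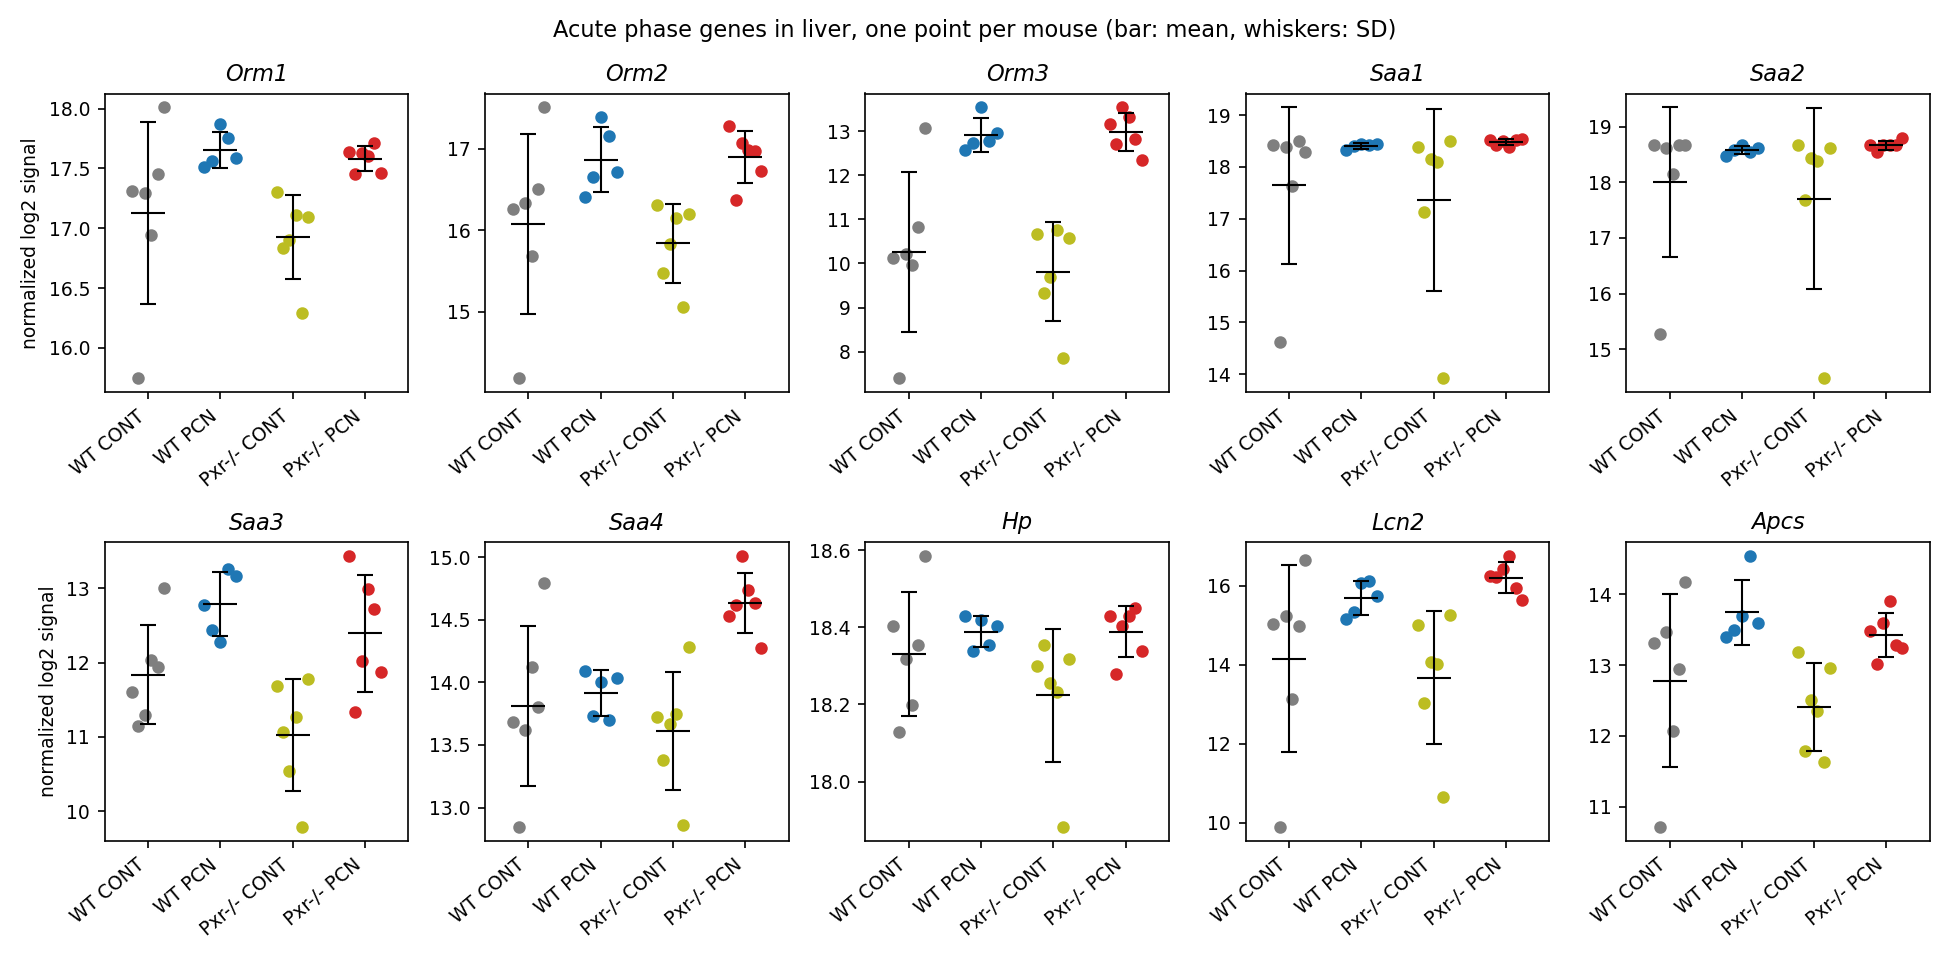
Normalized log2 signal of the brightest detected probe of each acute phase gene in every mouse, by group (points are mice, the line is the group mean and the bar is ± SD, n = 6, 5, 6 and 6). The points spread more in the control groups than after PCN, most widely for Lcn2 and Orm3 in WT CONT mice, except for Saa3 in Pxr-/- mice.

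After PCN in WT mice, all 10 genes had a higher fitted level, and 1 of them, Orm3, rose by the criteria used here, an adjusted p of at most 0.05 and a fold change above 1.5. Over all genes tested, 3.79% were called higher and 2.39% lower in this comparison, and 1 of 10 is too few to be set apart from that share. The median change of the 10 genes was 0.73 on the log2 scale, beside -0.02 over all genes. For none of the 10 did every WT PCN mouse lie above every WT CONT mouse, a pattern seen in 5.85% of all genes, when each gene was read from its brightest probe.

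Orm3 had the largest of these changes. In WT CONT mice the normalized log2 signal of Orm3 was 7.39 at its lowest, 10.17 at the median and 13.07 at its highest. In WT PCN mice the 5 values were 12.57, 12.73, 13.55, 12.78 and 12.96. Only WT CONT replicate 6 reached the range of the treated group, and the other 5 control mice lay below every treated mouse. The fitted rise was 2.62 ± 0.64 (SE) on the log2 scale, a 6.16-fold change (limma, adjusted p = 0.00487).

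A second Orm3 probe, dimmer and closer to the background, gave a similar rise without the overlap. The array files name it Orm3, but its listed transcript had no match in the RefSeq table, unlike that of the first probe. Its signal ran from 5.23 to 6.84 in WT CONT and from 8.0 to 9.11 in WT PCN mice, so that every treated mouse lay above every control. The fitted rise was 2.69 ± 0.32 on the log2 scale (6.47-fold, adjusted p = 4.69e-06), although 1 of the 6 control arrays was not well above background for this probe. Within washing batch 1 the first probe rose by 2.38 (adjusted p = 0.00156), and within batch 2, which holds the 3 control mice described above, by 3.0 (adjusted p = 0.185). Leaving out each array in turn gave 2.08 to 3.22 for Orm3, called each time.

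**Figure D3:**
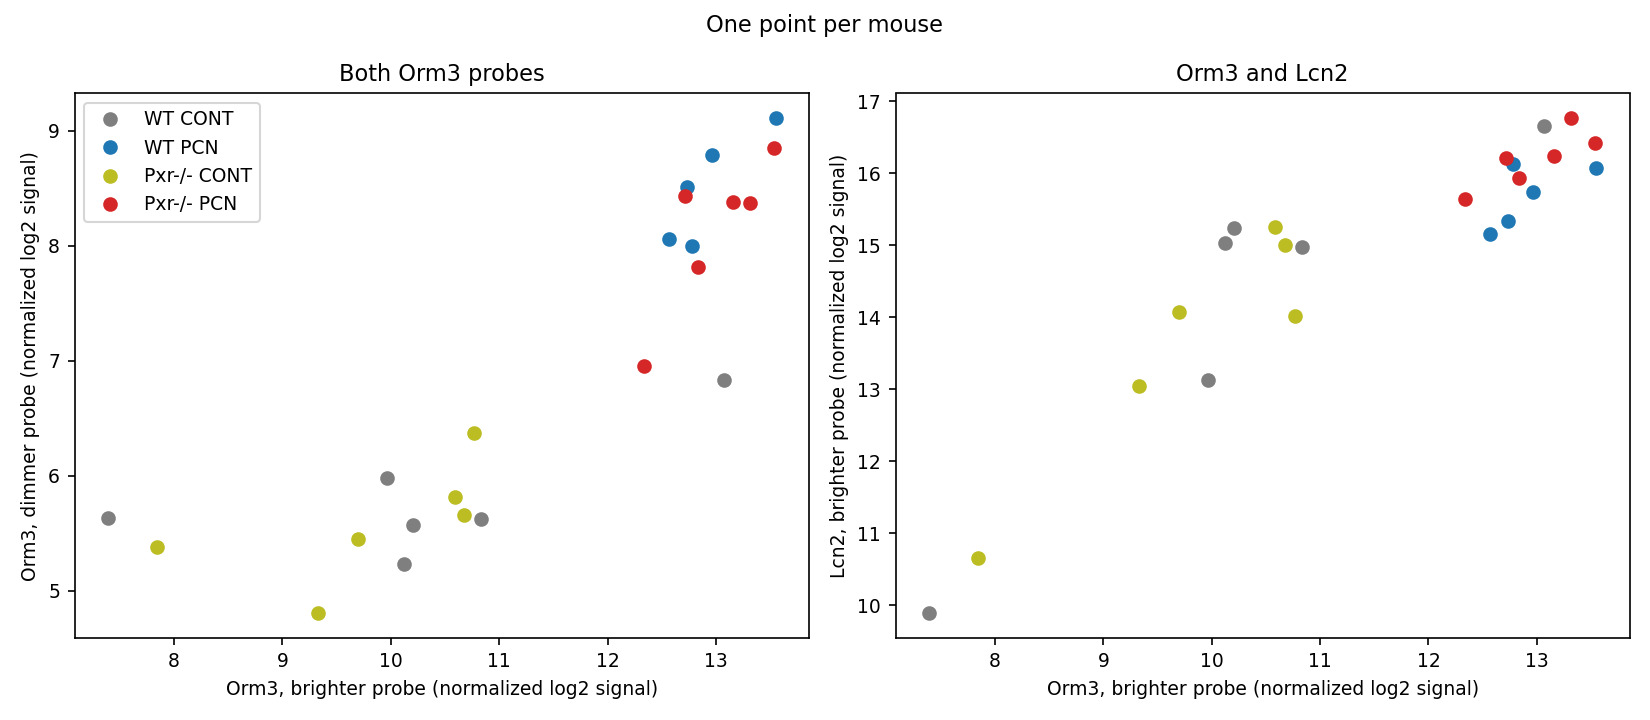
Normalized log2 signal of the second, dimmer Orm3 probe (left) and of Lcn2 (right) against that of the brighter Orm3 probe, with 1 point per mouse and colours for the groups. On the dimmer probe the WT PCN mice, from 8.0 to 9.11, lie above all WT CONT mice, from 5.23 to 6.84, while on the brighter probe WT CONT replicate 6 reaches 13.07.

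Orm1 and Orm2, the abundant liver orosomucoids, did not pass the test in WT mice. Orm1 had a signal of 15.74, 17.31 and 18.01 (lowest, median, highest) in WT CONT and of 17.51, 17.59 and 17.87 in WT PCN mice, a fitted difference of 0.51 ± 0.24 (adjusted p = 0.139). Orm2 had 14.19, 16.30 and 17.51 in WT CONT against 16.41, 16.72 and 17.39 in WT PCN mice, a difference of 0.76 ± 0.37 (adjusted p = 0.148). For both genes the treated mice fell inside the range of the controls, because WT CONT replicate 6 was above every treated mouse.

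The serum amyloid A genes differed less between the WT groups than among the controls. Saa1 had a signal of 14.62, 18.33 and 18.49 (lowest, median, highest) in WT CONT mice and between 18.32 and 18.45 in WT PCN mice, a fitted difference of 0.70 ± 0.64 (adjusted p = 0.472). Saa2 gave 15.28, 18.63 and 18.66 in WT CONT and 18.47 to 18.66 in WT PCN mice, and the fitted difference was 0.51 ± 0.59 (adjusted p = 0.578). The median WT CONT mouse was thus at the level of the treated mice for both genes, and the differences of the means came from WT CONT replicate 2, without which they were 0.16 for Saa1 and 0.03 for Saa2. The same normalized Saa2 value, 18.66, was shared by 9 arrays whose median signals ran from 395806 to 465355, because quantile normalization assigns values by rank, so small differences near the top of the scale are not resolved.

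Saa3 had 11.14, 11.78 and 13.001 (lowest, median, highest) in WT CONT and 12.28, 12.77 and 13.27 in WT PCN mice. The difference was 0.91 ± 0.37 on the log2 scale, a ratio of 1.88 (adjusted p = 0.0821), with overlap between the groups. Saa4 gave 12.85, 13.74 and 14.79 in WT CONT and 13.70, 14.01 and 14.09 in WT PCN mice, a difference of 0.10 ± 0.25 (adjusted p = 0.817). Of the 4 genes, Saa4 had the smallest fitted difference, and its sign turned to -0.09 without WT CONT replicate 2.

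Lcn2 was the gene with the largest difference that did not pass the test in WT mice. Its signals in the 6 WT CONT mice were 15.04, 9.89, 15.24, 13.13, 14.97 and 16.67, against 15.16, 15.33, 16.08, 16.13 and 15.74 in the 5 WT PCN mice. The range of the controls enclosed the treated group on both sides. The difference was 1.47 ± 0.83 (adjusted p = 0.221), and a second Lcn2 probe gave 1.60 (adjusted p = 0.184).

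Apcs had 10.71, 13.13 and 14.18 (lowest, median, highest) in WT CONT against 13.40, 13.59 and 14.55 in WT PCN mice, a difference of 0.93 ± 0.42 (adjusted p = 0.113). Hp varied little, with 18.33 ± 0.16 (SD, n = 6) in WT CONT and 18.39 ± 0.04 (n = 5) in WT PCN mice, a difference of 0.05 ± 0.079 (adjusted p = 0.704) whose sign turned when signals were scaled to a percentile or a median of each array in place of quantile normalization. WT CONT replicate 6 decided the count in this comparison. Without it 5 of the 10 genes were called higher, Orm1, Orm2, Saa3 and Apcs joining Orm3, and without any other single array 1 gene was.

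**Figure D4:**
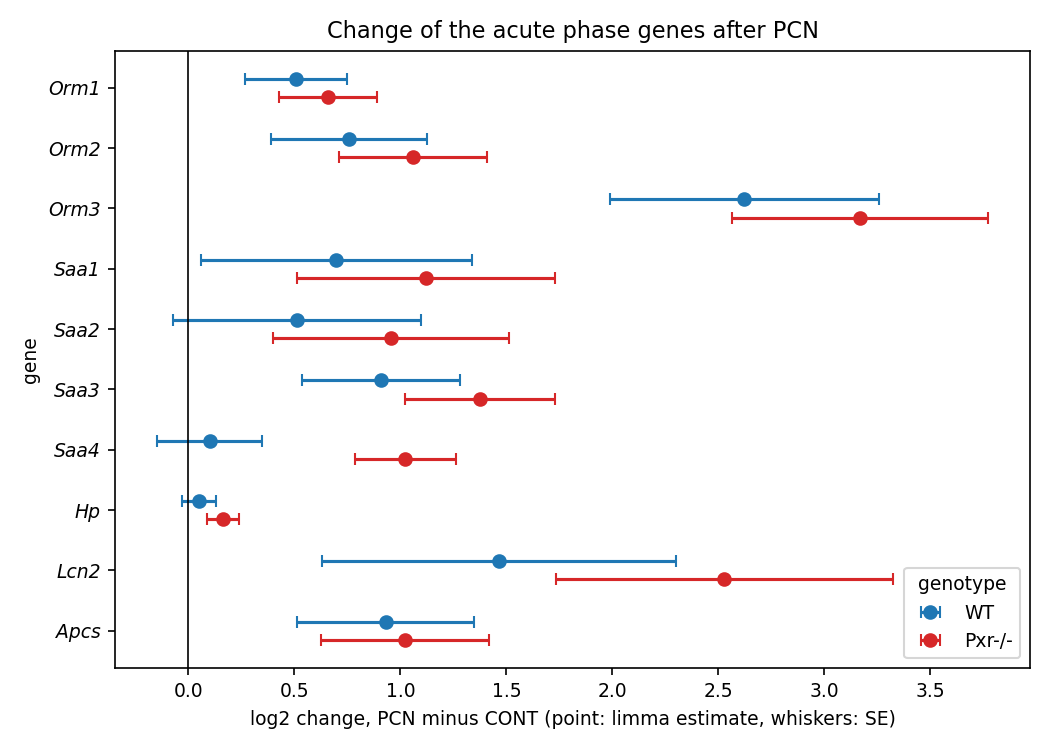
Fitted log2 change after PCN in WT mice and in Pxr-/- mice for each acute phase gene, with whiskers of ± SE around the limma estimate. Every point lies above 0, and the largest changes are those of Orm3 (2.62 and 3.17) and Lcn2 (1.47 and 2.53). Orm3 in Pxr-/- mice is a description with no test.

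In mice without PXR, Saa3 and Saa4 rose after PCN, and Orm3, the gene chosen for its rise, was higher in every treated mouse. All 10 genes had a higher fitted level in Pxr-/- PCN than in Pxr-/- CONT mice, with a median change of 1.04 on the log2 scale beside -0.01 over all genes. Past the criteria were 3 of 10, Orm3 included, against 1.42% of all genes called higher and 0.86% lower, and nothing is read from that count because the set was built around Orm3 in this comparison. Every treated mouse lay above every control for 4 genes, Orm1, Orm2, Orm3 and Lcn2, a pattern found in 1.57% of all genes. Nothing is read from this count either, since the set was built around Orm3, and Orm1 and Orm2 resemble it.

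Orm3, the gene chosen for this rise, had a signal of 10.68, 9.33, 9.70, 10.77, 7.85 and 10.59 in the 6 Pxr-/- CONT mice. In the 6 Pxr-/- PCN mice it was 13.16, 12.72, 13.54, 13.32, 12.84 and 12.34. The groups did not overlap, and the difference was 3.17 ± 0.61 (SE) on the log2 scale, a ratio of 8.99, with 2.92 in washing batch 1 and 3.42 in batch 2. On the second Orm3 probe it was 2.55 ± 0.30, from 5.58 ± 0.52 (SD, n = 6) to 8.13 ± 0.66 (n = 6), where 3 of the 6 control arrays were not well above background. These values chose the gene and stand without a test.

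Of the other orosomucoids, Orm1 had 16.29, 16.997 and 17.31 (lowest, median, highest) in Pxr-/- CONT and 17.45, 17.62 and 17.71 in Pxr-/- PCN mice, and Orm2 had 15.07, 15.99 and 16.31 against 16.37, 16.98 and 17.28. The groups stood apart for both genes. The differences were 0.66 ± 0.23 for Orm1 (1.58-fold, adjusted p = 0.0897) and 1.06 ± 0.35 for Orm2 (2.08-fold, adjusted p = 0.0727), and neither was called.

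Saa3 and Saa4 were the serum amyloid A genes that rose in Pxr-/- mice. Saa3 went from 9.79, 11.17 and 11.78 (lowest, median, highest) in Pxr-/- CONT to 11.34, 12.37 and 13.44 in Pxr-/- PCN mice, with overlap between the groups, a rise of 1.37 ± 0.35 (2.59-fold, adjusted p = 0.0234). Saa4 went from 12.86, 13.69 and 14.28 to 14.27, 14.62 and 15.01, the highest control lying just above the lowest treated mouse, a rise of 1.02 ± 0.24 (2.03-fold, adjusted p = 0.0127). The rise of Saa3 was 1.38 in washing batch 1 and 1.36 in batch 2, and that of Saa4 was 1.11 and 0.94.

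The Saa3 call depended on single animals. It was lost, at adjusted p between 0.0527 and 0.0706, when Pxr-/- CONT replicate 3 or 5 or Pxr-/- PCN replicate 1 or 4 was left out, and Saa4 was called in each of these fits. Saa1 and Saa2 were not called. Saa1 ran from 13.92 to 18.49 in Pxr-/- CONT mice and from 18.39 to 18.55 in Pxr-/- PCN mice, a difference of 1.12 ± 0.61 (adjusted p = 0.297), which was 0.47 without Pxr-/- CONT replicate 5. For Saa2 the difference was 0.96 ± 0.56 (adjusted p = 0.335), and 0.34 without that mouse.

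Lcn2 had signals of 15.01, 13.04, 14.08, 14.02, 10.66 and 15.25 in the Pxr-/- CONT mice and of 16.24, 16.22, 16.43, 16.77, 15.94 and 15.64 in the Pxr-/- PCN mice. Every treated mouse lay above every control. The difference was 2.53 ± 0.79 (5.77-fold, adjusted p = 0.0584) on the brighter probe, which missed the threshold, and 2.69 (6.46-fold, adjusted p = 0.0474) on the second, which passed it. Within the washing batches the brighter probe gave 2.18 and 2.88.

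Apcs differed by 1.02 ± 0.40 (adjusted p = 0.128), from 12.40 ± 0.62 (SD, n = 6) in Pxr-/- CONT to 13.42 ± 0.31 (n = 6) in Pxr-/- PCN mice. Hp differed by 0.16 ± 0.076 (adjusted p = 0.204), from 18.22 ± 0.17 to 18.39 ± 0.07. The spread shared by all 4 groups entered this test, so a WT mouse could move it. The count rose from 3 to 7 of 10 when WT CONT replicate 2 was left out and to 6 when WT CONT replicate 6 was, although neither array is in the contrast. Without both WT CONT replicate 2 and Pxr-/- CONT replicate 5 the count was 4, made of Orm2 (0.90, adjusted p = 0.0452), Lcn2 (1.91, adjusted p = 0.021), Saa4 (0.85, adjusted p = 0.0108) and Orm3, while Saa3 no longer passed (1.15, adjusted p = 0.0598).

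Between the genotypes, no acute phase gene was called in corn oil-treated mice. All 10 genes had a lower fitted level in Pxr-/- CONT than in WT CONT mice, the differences running from -0.82 for Saa3 (adjusted p = 0.388) to -0.11 for Hp (adjusted p = 0.618), with a median of -0.29. In limma 0 of 10 passed, and 1, Saa3, had an unadjusted p under 0.05. Over all genes 0.228% were called higher and 0.0807% lower. The mouse that was low in each group weighed on these values. The difference of Saa1, -0.28, was -0.84 without WT CONT replicate 2 and 0.37 without Pxr-/- CONT replicate 5, and that of Orm2, -0.24, was 0.09 without WT CONT replicate 6. Orm3 differed by -0.45, and by 0.18 without WT CONT replicate 6, values given as a description.

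In PCN-treated mice the levels of most of the 10 genes lay close together in the genotypes, with a median difference of 0.08 and 0 of 10 called in limma, against 2.09% of all genes called in either direction. Orm3 was 12.92 ± 0.38 (SD, n = 5) in WT PCN and 12.99 ± 0.44 (n = 6) in Pxr-/- PCN mice. Saa4 had the largest fitted difference of the 10, 0.72 ± 0.25 (1.65-fold, adjusted p = 0.0763). For this gene every Pxr-/- PCN mouse, from 14.27 upwards, lay above every WT PCN mouse, from 14.09 downwards, a pattern seen in 3.21% of all genes. Saa4 was the single gene of the 10 with this pattern, and 1 of 10 is too few to be set apart from that share. Saa4 was also the single gene of the 10 with an unadjusted p under 0.05, for which no share over all genes is given. It passed the criteria without WT CONT replicate 2 (adjusted p = 0.0387) or without WT CONT replicate 6 (adjusted p = 0.0344), although neither array is in this comparison.

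Whether PCN acted differently in the genotypes was tested with the interaction term, the change in WT mice minus the change in Pxr-/- mice. In limma 0 of the 10 genes were called, against 1.05% of all genes. Of Cyp3a11, the PXR target, the change was larger in WT mice by 3.24 (adjusted p = 1.23e-06), with rises of 3.55 in WT (adjusted p = 4.12e-10) and 0.31 in Pxr-/- mice (adjusted p = 0.431). On their brightest probes, all 10 acute phase genes had the opposite sign, a larger fitted change in Pxr-/- mice, between -0.09 for Apcs (adjusted p = 0.965) and -1.06 for Lcn2 (adjusted p = 0.736). The second Orm3 probe had the other sign, 0.14, and on the brighter probe (-0.54) the sign turned to 0.048 without WT CONT replicate 6. Leaving out 1 array also turned the sign for Orm1, Orm2, Saa1, Saa2 and Apcs. For Saa4 the interaction was -0.92 ± 0.34 (adjusted p = 0.204), again the single gene with an unadjusted p under 0.05. The interaction shares arrays with every other comparison, so its signs are no further evidence. With SEs up to 1.15, that of Lcn2, differences between the genotypes of well over 1 on the log2 scale were not detectable for the most variable genes.

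Other genes of the response were read from lists chosen for their known roles, but with earlier results of these data known. Of 22 other positive acute phase genes tested, 5 rose and 1 fell after PCN in WT mice, with 14 fitted changes above 0 and a median of 0.11. Over all genes, 3.79% were called higher and 2.39% lower in this comparison. The risers were Cd14, the lipopolysaccharide co-receptor (2.00, adjusted p = 7.15e-05), Mt2, a metallothionein (1.87, adjusted p = 0.0445), Hamp2, a copy of hepcidin (1.49, adjusted p = 0.0432), Il1rn, the interleukin-1 receptor antagonist (1.45, adjusted p = 0.00303), and Steap4, a metalloreductase (1.45, adjusted p = 0.0106). Hamp, the iron hormone hepcidin, fell by 0.95 (adjusted p = 0.0381). Hamp and Hamp2 are near copies and their probes may share transcripts. The calls of Mt2, Hamp2 and Hamp were each lost in 8 or more of the 23 fits that left out 1 array.

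In Pxr-/- mice 5 of the 22 rose and 0 fell, with 19 fitted changes above 0 and a median of 0.34. Over all genes, 1.42% were called higher and 0.86% lower. The 5 were Steap4 (2.01, adjusted p = 0.00349), Il1rn (1.69, adjusted p = 0.00342), Cd14 (1.42, adjusted p = 0.00525), Mt1 (1.30, adjusted p = 0.0394) and Itih3, which encodes a hyaluronan-binding inhibitor chain (1.02, adjusted p = 0.0013). The Mt1 call was lost in 10 of the 23 fits that left out 1 array, and a second Il1rn probe was not called in WT (adjusted p = 0.0521) or Pxr-/- mice (adjusted p = 0.056). Serpina3n, an acute phase protease inhibitor, changed by 0.18 in WT (adjusted p = 0.811) and 1.21 in Pxr-/- mice (adjusted p = 0.0772), and Lrg1 by -0.48 (adjusted p = 0.242) and 0.32 (adjusted p = 0.531). Between the PCN-treated groups Cd14 was lower in Pxr-/- mice by -0.96 (adjusted p = 0.048), a call lost in 17 of the 23 fits. Of the 22, limma called 0 between the control groups and 0 in the interaction, where 6 each had an unadjusted p under 0.05. Over all genes, 0.228% were called higher and 0.0807% lower between control groups, and 1.05% were called in the interaction.

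Of 8 negative acute phase genes, which fall in the classical response, 0 were called after PCN in WT mice (2 at an unadjusted p under 0.05, median change -0.07). In Pxr-/- mice 1 was called and it was higher, Apoa1, the main protein of high-density lipoprotein (0.62, adjusted p = 0.000955). Over all genes, 3.79% were called higher and 2.39% lower in WT mice, and 1.42% and 0.86% in Pxr-/- mice.

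Upstream of the acute phase genes, the cytokines that could be read were Il1b, Osm, Il1a and Tnf, of 7 listed, and Il1a and Tnf were not called in either genotype. Il6, Lif and Il22 were not above the detection filter and were not tested. Il1b, interleukin-1β, rose by 0.97 in WT mice (adjusted p = 0.00163) and by 0.97 in Pxr-/- mice (adjusted p = 0.00531), while a second Il1b probe stayed below the fold threshold in both. Osm, the STAT3-activating cytokine oncostatin M, was not well above background on any of the 6 WT CONT arrays. Its normalized signal was 5.86 in WT PCN against 5.03 in WT CONT mice (limma, adjusted p = 0.000979). With control values raised to the dimmest detected probe of each array, the rise was at least 1.56-fold, a bound that was not itself tested. In Pxr-/- mice Osm was not called (adjusted p = 0.068), with 0 of 6 control arrays well above background.

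Among 12 receptors and members of the STAT3 arm, Osmr, the oncostatin M receptor, rose by 1.41 in WT (adjusted p = 9.41e-05) and 1.40 in Pxr-/- mice (adjusted p = 0.000657). Every WT PCN mouse lay above every WT CONT mouse for Osmr, a pattern seen in 5.85% of all genes. Osmr was the only one of the 12 called in WT mice, where 3.79% of all genes were called higher and 2.39% lower. Limma called 0 of the 12 in the interaction, against 1.05% of all genes. In Pxr-/- mice 4 were called, against 1.42% of all genes called higher and 0.86% lower. Besides Osmr these were Socs3, the feedback inhibitor induced by STAT3 (1.91, adjusted p = 0.0105), Il1r1, the interleukin-1 receptor (1.42, adjusted p = 0.0206), and Stat3 (0.75, adjusted p = 0.021). In WT mice the same 3 genes gave 1.05 for Socs3 (adjusted p = 0.0964), 0.71 for Il1r1 (adjusted p = 0.185) and 0.44 for Stat3 (adjusted p = 0.115). The interaction was not significant for Socs3 (-0.86, adjusted p = 0.573) or Stat3 (-0.30, adjusted p = 0.671). The Pxr-/- calls of Il1r1 and Stat3 were each lost in 4 of the 23 fits that left out 1 array. Il6ra, the interleukin-6 receptor, was higher in Pxr-/- PCN than in WT PCN mice by 1.03 (adjusted p = 0.00647).

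**Figure D5:**
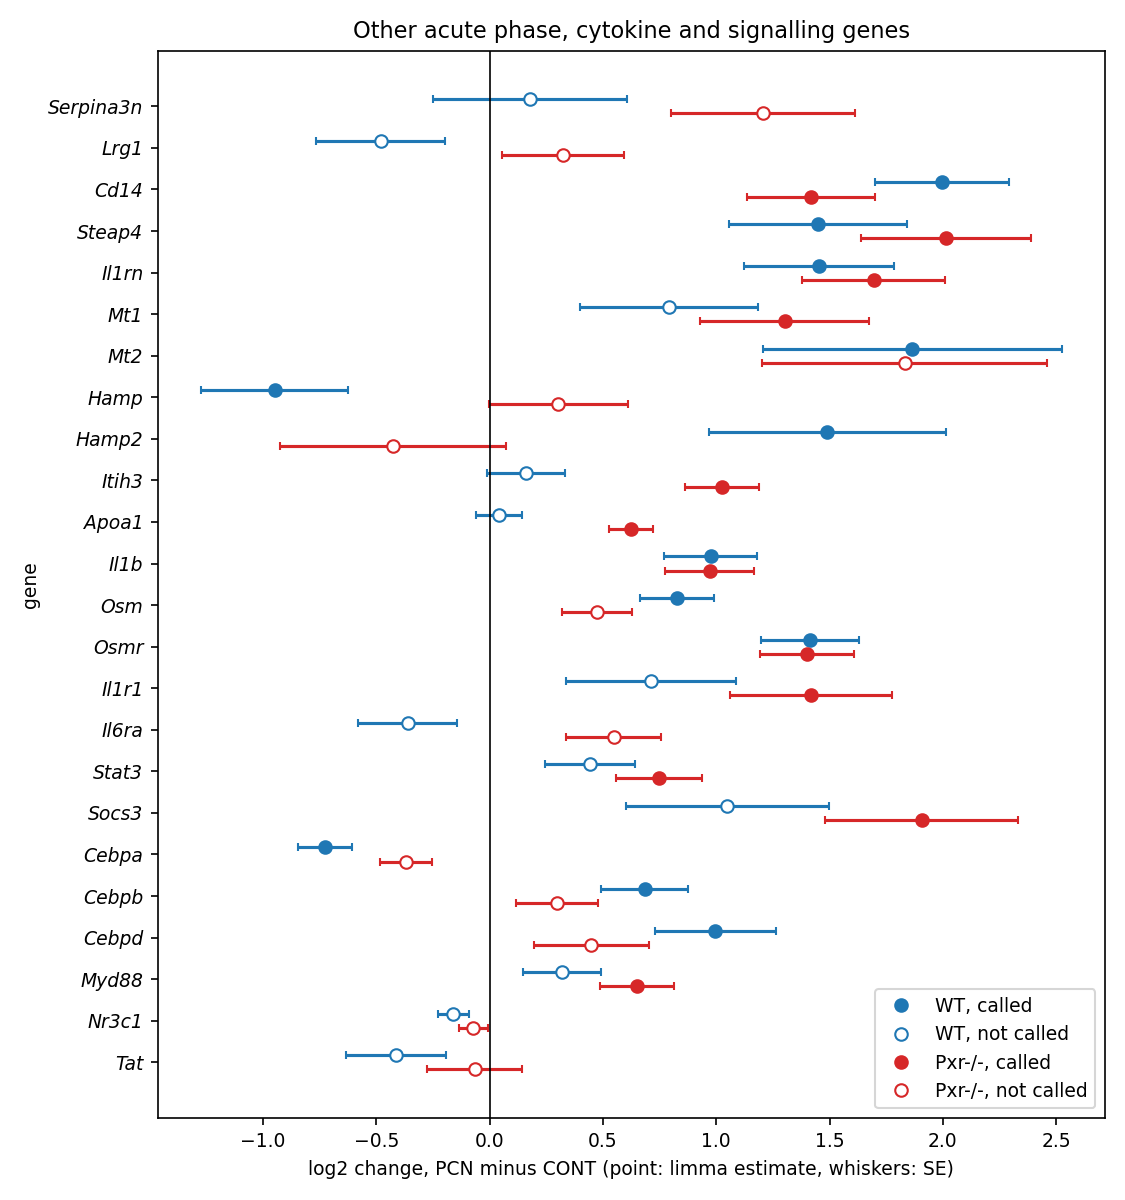
Fitted log2 change after PCN in WT mice and in Pxr-/- mice for genes of the cytokine, STAT3, NF-κB and C/EBP arms and other acute phase genes, with whiskers of ± SE and filled symbols for called genes (Osm was not well above background in control mice). Cd14, Il1rn, Steap4, Il1b and Osmr are called in both genotypes, with Osmr at 1.41 and 1.40.

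In the NF-κB and C/EBP arm, 3 of 11 genes were called in WT mice, against 3.79% of all genes called higher and 2.39% lower. Cebpb and Cebpd, the C/EBP factors induced in the acute phase, rose by 0.68 (adjusted p = 0.0122) and 1.00 (adjusted p = 0.00962), and Cebpa, the C/EBP factor of resting hepatocytes, fell by 0.72 (adjusted p = 0.000201). In Pxr-/- mice Cebpb changed by 0.30 (adjusted p = 0.36) and Cebpd by 0.45 (adjusted p = 0.318). There 1 of the 11 was called, against 1.42% of all genes called higher and 0.86% lower. This was Myd88, the adaptor of interleukin-1 and Toll-like receptors (0.65, adjusted p = 0.0205). The interaction did not pass for Cebpb (adjusted p = 0.539), Cebpd (adjusted p = 0.536) or Cebpa (adjusted p = 0.322). Of 9 genes of the glucocorticoid receptor and its targets, 0 were called after PCN in WT and 0 in Pxr-/- mice, with 3 and 1 at an unadjusted p under 0.05. Nr3c1, the receptor itself, changed by -0.16 in WT (adjusted p = 0.0967) and -0.07 in Pxr-/- mice (adjusted p = 0.576). Between the PCN-treated groups 8 of the 9 had a higher fitted level in Pxr-/- mice, with a median of 0.68 beside 0.009 over all genes. Of the 9, 3 had an unadjusted p under 0.05 and 1 was called, against 2.09% of all genes called. Between the control groups 7 were higher in Pxr-/- mice, with a median of 0.37, and 0 had an unadjusted p under 0.05. Tat, tyrosine aminotransferase, was higher in Pxr-/- PCN than in WT PCN mice by 0.73 (adjusted p = 0.0436), a call lost in 12 of the 23 fits that left out 1 array.

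Because neutrophils also make Lcn2, their markers were read beside it. Of 10 listed, 9 were tested and Ngp was not above the filter. After PCN 5 rose in WT mice (S100a8, S100a9, Mpo, Retnlg and Cxcr2) and 4 in Pxr-/- mice. Over all genes, 3.79% were called higher in WT and 1.42% in Pxr-/- mice. Of the 9 markers, 1 had a fitted change below 0 in WT mice and 3 had one in Pxr-/- mice. The summed log2 signal of the 9 ranged from 14.73 to 15.16 in WT CONT, 14.83 to 15.38 in WT PCN, 14.84 to 15.11 in Pxr-/- CONT and 15.09 to 15.60 in Pxr-/- PCN mice. Of 5 monocyte markers 3 rose in WT and 1 in Pxr-/- mice, with summed log2 signals of 11.81 to 12.44, 12.10 to 12.41, 11.56 to 12.03 and 11.87 to 12.24 in the 4 groups, while 0 of 8 Kupffer cell markers were called in either genotype. In WT CONT replicate 2 and Pxr-/- CONT replicate 5, the mice lowest for the acute phase genes, the summed neutrophil signal was 14.73 and 14.88 and the hepatocyte sum 20.05 and 19.94. The part of these cells in the changes of Lcn2, Saa3 or the other genes was not tested.

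Among the 10 genes, the pattern of Orm3 over the mice was closest to those of Orm2, Orm1 and Lcn2. Over the 23 arrays, the Pearson correlation of normalized log2 signal with Orm3 was 0.925 for Orm2, 0.920 for Orm1, 0.909 for Lcn2, 0.854 for Apcs, 0.813 for Saa4 and 0.799 for Saa3, and between 0.723 and 0.760 for Saa1, Saa2 and Hp. After group means and washing batch were removed, Orm1 (0.947), Orm2 (0.934) and Lcn2 (0.915) were still the highest of the 9. The Orm1 and Orm3 probes share 46 of 52 aligned bases, and the part of shared hybridisation in these values was not tested. Outside the set, and among genes whose names were found in the RefSeq table, the 5 closest to Orm3 over the arrays were Sbno2 (0.915), Cd302 (0.912), Ssbp4 (0.897), Wfdc21 (0.884) and Cpne8 (0.879), and within groups they were Fgl1 (0.931), 1110008P14Rik (0.921), Isyna1 (0.919), Ang (0.911) and Olfr1218 (0.910). These correlations describe 23 arrays that share treatment groups and include the control mice that deviated most, and they carry no test.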

How the data were processed

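Total liver RNA (150 ng per mouse) was labelled with Cy3. Per the file headers, the deposited scanner files come from Agilent Feature Extraction (version 10.10.1.1 in the submitters' processing notes) and give each spot's intensity, linear and unnormalized. The authors also deposited normalized log2 values, made by filtering, washing batch correction and a cross-normalization of stacked arrays, and these served as an alternative. Here the median signal was taken to log2, 2225 spots with outlier flags were dropped, and spots of a probe were averaged. Of 56605 probes, 32087 were kept because over 50% of the arrays in some group were well above background, and the values were quantile normalized. The number of arrays limits the precision.

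All arrays entered 1 limma fit (version 3.58.1, R 4.3.3) with group and washing batch as terms (18 residual degrees of freedom). Benjamini-Hochberg adjustment covered every probe tested, and calls needed an adjusted p no higher than 0.05 with a fold change above 1.5. Each gene was represented by the brightest of its kept probes. The 10 genes and all gene lists were chosen with earlier results of these data known. Named genes were the 10, the called genes of each list (at most 6 by size of change), 9 genes fixed by name, Cyp3a11, and the 5 genes most like Orm3 by each of 2 correlations. The procedure was checked on simulated data with the same spread in every group and no batch effect. That check does not cover the unequal spreads of the acute phase genes. Alternatives covered signal column, normalization, filter, batch, slide, replicate block, arrays fitted and probe choice, and 2 were added after the data were seen (leaving out both low control mice, and array weights). Replicate numbers did not pair the samples.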

Additional observations from a re-analysis of the deposited data

Results flagged for a closer look

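In 6 of the 40 combinations of an acute phase gene with a group, a single mouse lay far from the others. Its gap to the nearest mouse exceeded the 95% critical value of Dixon's test for that group size. Chance gives about 1 in 20 in independent tests, but these share mice and related genes, so no excess is read from the count. WT CONT replicate 2 was the low mouse for Saa1 (gap of 0.779 of the group's range) and Saa2 (0.847). Pxr-/- CONT replicate 5 was the low mouse for Saa1 (0.702), Saa2 (0.767) and Hp (0.743). WT PCN replicate 4 was the high mouse for Apcs (0.743), at 14.55 against 13.40 to 13.69 in the other 4 mice. In WT CONT replicate 2 the Saa1 signal was 14.62, and in Pxr-/- CONT replicate 5 it was 13.92, whereas the group medians were 18.33 and 18.13. WT CONT replicate 6, high for 8 of the 10 genes, did not exceed the critical value for any of them.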

How the results depend on the processing

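The call of Orm3 in WT mice held in each alternative but washing batch 2 alone, and with 5 to 6 mice per group and control SDs up to 2.37 on the log2 scale, the other changes of 0.5 to 1.5 lie near or under what the arrays resolve. The cause of the differences below was not tested. Leaving out each array in turn gave 1 to 5 called genes of the 10 in WT mice, 2 to 7 in Pxr-/- mice, 0 to 0 between control groups, 0 to 1 between PCN groups and 0 to 0 in the interaction. The replicate numbers did not pair the samples (median correlation of deviations 0.064 in 33 same-number pairs, against -0.030 in the other pairs), and the replicate block moved the count of the 10 to 4 in WT and 5 in Pxr-/- mice. The count was 3 in WT mice with the deposited values, 2 within washing batch 1 and 0 within batch 2. In Pxr-/- mice it was 7 with only the groups compared, 6 with array weights and 0 within batch 2. Between PCN groups it was 1 with only the groups compared, within batch 1, with array weights and without both low control mice. The slide as a random block (correlation 0.00951) changed no count.

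For the other positive acute phase genes, leaving out each array gave 3 to 7 called in WT mice, 4 to 6 in Pxr-/- mice, and 0 to 1 in each of the other comparisons. The count was 3 in WT mice without the filter and 0 within batch 2, and 1 in Pxr-/- mice within either batch. Between control groups it was 1 with the replicate block, with array weights and without both low mice. Between PCN groups it was 0 with the processed signal, stacked quantile normalization, no filter, only the groups compared, either batch alone, the mean of probes and without both low mice. In the interaction it was 2 with array weights.

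Some changes turned sign. With the processed signal, Hp was -0.045 in WT mice and 0.0051 between control groups, and Orm1 0.091 between PCN groups. With the deposited values, Orm2 was -0.093 and Hp -0.024 between PCN groups, Apcs 0.082 in the interaction and Nr3c1 0.015 in WT mice. With median centring, Hp was -0.065 in WT mice and Orm1 0.047 between PCN groups. Without the batch term, Hp was -0.00041 between PCN groups. With the replicate block, Orm2 was -0.073, Saa1 -0.049, Saa2 -0.024 and Hp -0.020 between PCN groups and Apcs 0.061 in the interaction. Within batch 1, Saa1 was -0.042, Saa2 -0.10 and Serpina3n -0.10 in WT mice, Orm1 0.040 between PCN groups and Saa3 0.066 in the interaction. Within batch 2, Saa4 was -0.050, Stat3 -0.071 and Socs3 -0.072 in WT mice, Saa1 0.011, Lcn2 0.10 and Apcs 0.052 between control groups, Orm2 -0.33 and Hp -0.029 between PCN groups, and Orm1 0.074, Orm2 0.24 and Apcs 0.25 in the interaction. Without both low control mice, Saa4 was -0.092 and Serpina3n -0.17 in WT mice.

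Leaving out each array in turn, Saa4 ranged from -0.092 to 0.30 and Serpina3n from -0.17 to 0.31 in WT mice. Between control groups Orm1 ranged from -0.47 to 0.0074, Orm2 from -0.61 to 0.091, Saa1 from -0.84 to 0.37, Saa2 from -0.81 to 0.32, Saa4 from -0.40 to 0.0063, Lcn2 from -1.31 to 0.12 and Orm3, given without a test, from -1.02 to 0.18. Between PCN groups Orm1 ranged from -0.11 to 0.046, Orm2 from -0.079 to 0.26, Hp from -0.0090 to 0.029, and Orm3 from -0.022 to 0.33. In the interaction Orm1 ranged from -0.40 to 0.050, Orm2 from -0.65 to 0.012, Saa1 from -0.96 to 0.27, Saa2 from -0.93 to 0.21, Apcs from -0.47 to 0.22, and Orm3 from -1.09 to 0.048. Between PCN groups Orm3 also turned sign with the deposited values (-0.16), the replicate block (-0.13), the mean of probes (-0.14) and within batch 2 (-0.35).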
